A study of Drosophila melanogaster with 3 samples.

Results

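Binding of the transcription factor Pipsqueak was read at 9 genes that set the identity and the age of neural stem cells (neuroblasts) in Drosophila melanogaster: Imp, Syp, lin-28, dpn, pros, grh, brat, ase and mira. The genes were taken by name, not by a measured value, from 13968 protein-coding genes on the chromosome arms. Earlier results of these data were known when they were chosen, so the choice was not blind to the data. Every ChIP-seq summit in the span of such a gene or within 1 kb of it was counted as a summit of that gene. The chromatin came from whole wandering larvae of the last instar, both sexes pooled and of unstated age. The line is transgenic and stably makes Pipsqueak with GFP at its C terminus, and anti-GFP antibody was used for the precipitation. There are 3 biological replicates, all of this 1 group, so the design holds no contrast between conditions. Whole larvae hold many tissues besides the brain, so no summit can be assigned to neuroblasts, and the peak lists hold no expression values against which the labelled stage could be checked.

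Neuroblasts divide asymmetrically: each division renews the neuroblast and gives a smaller daughter that goes on to differentiate. The adaptor Miranda carries the homeodomain protein Prospero and the translational repressor Brat into that daughter, where both end self-renewal. The basic helix-loop-helix proteins Deadpan and Asense are markers found in neuroblasts, but not only there. Larval neuroblasts also change with age, from high levels of the RNA-binding protein Imp to high levels of the RNA-binding protein Syncrip (Syp), and Grainyhead (grh) is a late factor of the embryonic temporal series. Lin-28, an RNA-binding protein known from the worm as a regulator of developmental timing, blocks maturation of the microRNA let-7. Pipsqueak itself is a BTB-domain protein whose DNA-binding domain recognises GAGAG repeats.

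Pipsqueak summits lay at 7 of the 9 genes. Of all protein-coding genes, 37.4% had a summit by the same rule in the optimal list, the 9459 peaks given by the authors' reproducibility step. These are the 9459 entries of highest signal in the pooled list of all replicates, so a single entry need not recur in each replicate. The 7 genes held 61 optimal summits in 39 separate regions: 22 at brat, 12 at Syp, 10 at Imp, 9 at grh, 5 at pros, 2 at dpn and 1 at lin-28. Thus 5 of the 9 genes held 5 or more summits, which 3.14% of protein-coding genes did, and 4 held 8 or more, which 1.32% did. No optimal summit lay at ase or mira. The count of 7 bound genes was the same in each replicate, taking from each replicate list its 9459 entries of highest signal (its top list), where 39.6%, 35.2% and 36.8% of protein-coding genes were bound. These top lists placed 55, 64 and 62 summits at the 9 genes, a mean of 60.3 ± 4.73 (SD, n = 3). Long genes collect more summits than short ones, and the median span of the 9 genes is 36409 bp against 2164.5 bp for all protein-coding genes. The counts of each gene are therefore set beside genes of comparable span (the shorter of the pair at least 0.8 times the longer) in what follows. The bound share of genes of comparable span was 62.2% for Imp, 64.9% for Syp, 66.4% for pros, 62.3% for grh and 62.6% for brat. It was 38.6% for lin-28, 43.3% for dpn, 36.5% for ase and 43.1% for mira.

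The deposited lists give no read counts: sequencing depth is unknown, and no interval for counting error can be given. The targeted gene psq held 32 optimal summits, among them the strongest of the list (signal 14175). All coordinates are on dm6, and signal values are the authors' own, on a scale that is not stated, used here only within a list. The optimal list has a median signal of 364.6 and a lowest of 191.2.

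The sequence under the summits is shown first, as windows of 101 bp on the plus strand of dm6, centred on the strongest summit of Imp, Syp, lin-28, pros and brat, from the RefSeq copy of the genome. Capitals mark GAGAG or its reverse complement CTCTC, and overlapping copies run together. These windows show that the strongest summit holds a GAGAG core at pros but not at Imp, Syp, lin-28 or brat. Of the bound genes not printed, grh has GAGAG 18 bp from its strongest summit and dpn has none in the window.
Imp, chrX:10805784-10805884: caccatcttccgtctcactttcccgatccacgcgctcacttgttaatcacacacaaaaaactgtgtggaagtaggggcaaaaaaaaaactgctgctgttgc
Syp, chr3R:20785101-20785201: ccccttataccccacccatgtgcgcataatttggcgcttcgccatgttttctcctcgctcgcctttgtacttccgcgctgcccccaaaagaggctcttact
lin-28, chr3L:5655275-5655375: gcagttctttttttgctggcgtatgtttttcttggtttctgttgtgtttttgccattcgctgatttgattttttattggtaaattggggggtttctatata
pros, chr3R:11372504-11372604: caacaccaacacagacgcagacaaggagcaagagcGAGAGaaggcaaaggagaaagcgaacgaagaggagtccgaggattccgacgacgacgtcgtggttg
brat, chr2L:19136739-19136839: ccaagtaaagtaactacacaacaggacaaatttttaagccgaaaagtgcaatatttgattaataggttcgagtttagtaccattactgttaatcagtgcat

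Further windows of these genes hold the longer repeat GAGAGAG, or TATCGATA, the sequence bound by the replication-related factor DREF. Of these 6, 4 lie within 500 bp of a start site of their gene. Capitals mark the GAGAG or CTCTC run, and TATCGATA.
Syp, chr3R:20778633-20778733: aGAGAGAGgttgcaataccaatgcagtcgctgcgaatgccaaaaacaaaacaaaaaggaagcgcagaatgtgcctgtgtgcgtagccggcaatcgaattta
Syp, chr3R:20782621-20782721: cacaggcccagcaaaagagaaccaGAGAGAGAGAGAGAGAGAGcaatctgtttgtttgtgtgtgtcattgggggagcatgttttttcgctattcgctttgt
brat, chr2L:19136940-19137040: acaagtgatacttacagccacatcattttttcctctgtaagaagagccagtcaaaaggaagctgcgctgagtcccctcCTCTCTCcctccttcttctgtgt
brat, chr2L:19158283-19158383: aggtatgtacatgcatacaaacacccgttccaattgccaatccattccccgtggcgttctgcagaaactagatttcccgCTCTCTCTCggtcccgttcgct
brat, chr2L:19133749-19133849: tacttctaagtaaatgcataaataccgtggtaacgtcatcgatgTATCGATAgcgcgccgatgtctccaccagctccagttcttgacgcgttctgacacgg
Imp, chrX:10805997-10806097: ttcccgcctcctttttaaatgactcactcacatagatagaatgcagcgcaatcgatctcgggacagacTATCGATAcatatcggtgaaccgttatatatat

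Imp, which encodes the RNA-binding protein of young neuroblasts, lies on the minus strand of X (10787869 to 10824277) and has 5 annotated start sites for its 12 transcripts. Its 10 summits began 7000 bp into the gene and none lay near its 3 most upstream start sites, whose nearest optimal summits were 3341, 4832 and 4540 bp away. The 2 downstream start sites were both bound. The start at 10815635, used by 2 transcripts, had a summit 123 bp upstream of it (signal 634), and the start at 10806856, used by 4 transcripts, had one 44 bp downstream in the 5' UTR (signal 332). The strongest Imp summit, at 10805834 (signal 1629), was intronic, 1022 bp past that last start site. The top lists placed 8, 10 and 10 summits at Imp, and 20 of 323 genes of comparable span held more optimal summits, with a median of 1.

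Syp, whose product opposes Imp in older neuroblasts, lies on the plus strand of 3R (20756729 to 20810726). It has 20 transcripts from 5 start sites, of which the first, as at Imp, and the last, unlike at Imp, had no summit within 500 bp. The first start site, used by 7 transcripts, had no summit closer than 7550 bp, and the last, used by 6, none closer than 1372 bp. The 3 start sites between them were bound, with their nearest summits at 212, 426 and 112 bp (signal 688, 483 and 451). The start site at 20782983, with the summit at 112 bp, also had a stronger one 312 bp upstream (signal 708). The strongest summit lay just beyond, in an intron, in 1 region from 20783972 to 20785480 that held 3 summits (signal 1326, 229 and 1412). A further pair lay 7550 and 9153 bp into the gene (signal 778 and 1163). The leading entry of the 3-summit region ranked 1000, 779 and 523, and lay 50 and 24 bp from the strongest summit in replicates 1 and 3 but 20 bp from the other strong one in replicate 2. The top lists gave 12, 12 and 11 summits. Of 222 genes of comparable span, 16 had more, and their median was 2.

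At lin-28 the data hold a single summit of middling strength. It lay at 5655325 on 3L, in an intron 644 bp past the only start site, with signal 352, which is below the median of the optimal list. Each top list held 1 summit there, and its matching entries ranked 6443, 6229 and 3170 in replicates 1, 2 and 3. No pooled entry below the optimal list fell at lin-28. Of 2126 genes of comparable span, 254 had more than 1 summit and 1306 had none.

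**Figure D1:**
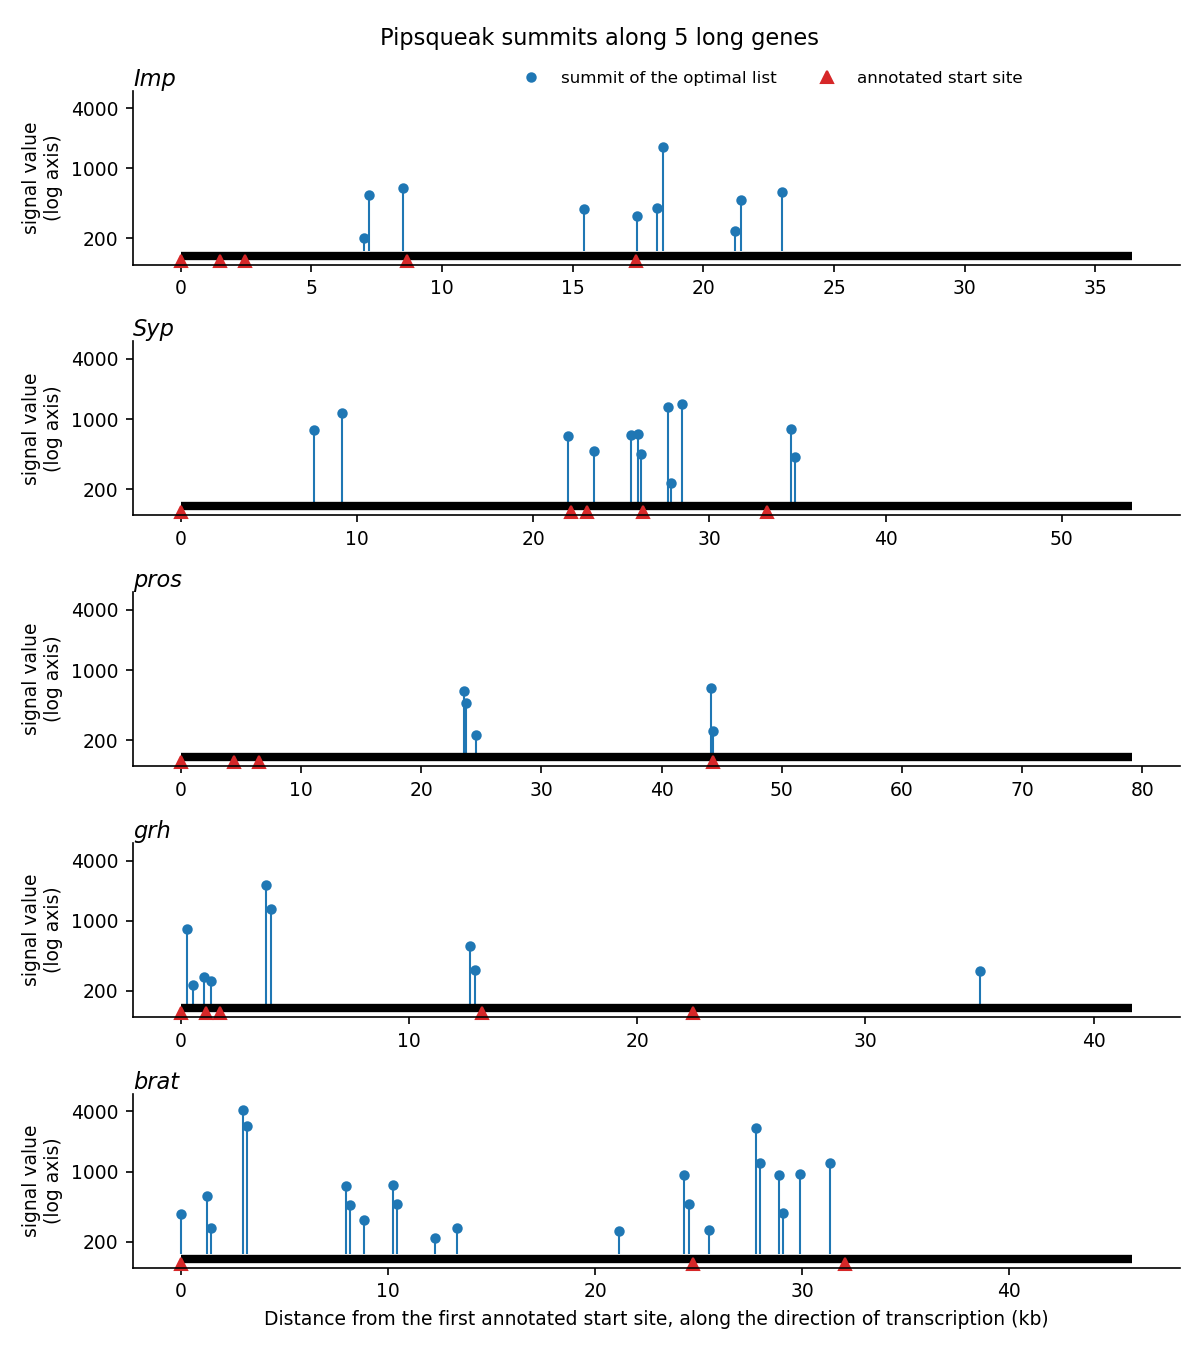
Signal value (log axis) of each optimal summit against its distance in kb from the first annotated start site, for Imp, Syp, pros, grh and brat; black bars are gene spans and red triangles are annotated start sites. Imp, Syp and pros have no summit at their first start site, while brat carries summits from its first start site to 31340 bp past it.

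Of the 2 helix-loop-helix genes, dpn was bound and ase was not. dpn lies on the minus strand of 2R (8228971 to 8232330). Both of its summits were intronic, at 1431 bp (signal 1012) and 1232 bp (signal 380) past its start site, in 1 region of 552 bp. They lay 166 and 33 bp from the start of sisRNA:4, a stable intronic RNA annotated inside dpn, and the weaker also lay within 500 bp of the start of sisRNA:CR46360. Binding at dpn and at these RNAs therefore cannot be told apart. The stronger ranked 1152, 1096 and 1252 in the replicates. The weaker was matched in replicate 1 only by an entry at rank 17971, outside the top list, and in replicates 2 and 3 by the same entries as the stronger one. Of the genes of comparable span, 62 of 1782 had more than 2 summits, and 1011 had none.

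ase, the neuroblast gene of the achaete-scute complex on X (460747 to 463176), had no entry in the pooled list. Among the 30000 entries of each replicate list, which include background, it had 1, in replicate 1, at rank 29369 with a −log10 q-value of 0.0765. The nearest optimal summit lay 2666 bp upstream of it (458081, signal 196). Of 2343 genes of comparable span, 1487 likewise had no summit.

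grh, which encodes the late temporal factor Grainyhead, had 9 summits on 2R (17801132 to 17842820, plus strand), of which all but 1, at 35025 bp, lay in the first 12906 bp. Of its 5 start sites 4 had a summit within 500 bp, at 273, 106, 417 and 306 bp, and the fifth was 9527 bp from the nearest. The strongest pair was intronic, 1987 and 2203 bp past the third start site (17804854, signal 2277, and 17805070, signal 1315), and ranked 226 and 685 in the optimal list. The stronger was steady between replicates, at ranks 228, 215 and 211. The number of summits was not: the top lists gave 6, 13 and 9, a mean of 9.33 ± 3.51 (SD, n = 3). Of 289 genes of comparable span, 25 held more optimal summits, with a median of 1. In replicate 1 only the first of the 4 bound start sites had a top-list summit within 500 bp, whereas replicates 2 and 3 had one at all 4. The summits 273 bp from the first start site and 106 bp from the second also lie 64 and 216 bp from a start of the antisense RNA asRNA:CR45270. A summit between them lies 43 bp from a start of this RNA. Each distance is to the nearest of its annotated starts, which is not the same start for all of these summits. Binding at grh and at this RNA cannot be told apart there.

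mira, the gene of the adaptor that segregates Prospero and Brat, was empty in every list: 0 entries in the optimal, pooled and all 3 replicate lists. The nearest optimal summit was 22760 bp from its span. Among 1795 genes of comparable span, 1022 had no optimal summit.

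pros, the gene of the homeodomain protein Prospero, held the fewest summits of the long genes among the 9. Its span of 79148 bp on 3R (11328480 to 11407627, plus strand) held 5 summits, and 48 of 122 genes of comparable span had more, with a median of 3. The 3 upstream start sites were bare for at least 17054 bp. The downstream start site at 11372788, used by 3 of the 6 transcripts, had summits 234 bp (signal 656) and 35 bp (signal 245) upstream of it. Both fell in a coding exon of the longer transcripts. The other 3 summits, 23554 to 24564 bp past the first start site, lay inside KP78a and KP78b, a pair of protein kinase genes that share 1 span on the opposite strand within pros. One of them (11353044, signal 227) was 87 bp from the KP78a start site, in the 5' UTR of both genes. These 3 cannot be told apart from summits of KP78a and KP78b. The top lists gave 5, 4 and 5 summits at pros.

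brat, the gene of the translational repressor, held the most summits and the strongest. It lies on the plus strand of 2L (19133816 to 19179758) with 5 transcripts from 3 start sites. Its 22 summits fell in 15 regions, and 2 of 262 genes of comparable span had more. The top lists gave 22, 22 and 24, a mean of 22.7 ± 1.15 (SD, n = 3). A pair of summits 2973 and 3174 bp past the first start site, in an intron, had signals of 4164 and 2868 and ranked 43 and 118 of 9459. They shared 1 region of 1399 bp. The strongest summit window has no GAGAG, which lies 187 bp away, and its neighbour 201 bp on holds the CTCTCTC printed above. The replicates placed the leading entry of this region differently: in replicates 2 and 3 it was 18 and 11 bp from the stronger optimal summit, and in replicate 1 it was 170 bp from it and 31 bp from the weaker one.

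A second group of brat summits surrounded its internal start sites. The start at 19158540 had summits 207 bp (signal 480) and 408 bp (signal 921) upstream, in an exon of lncRNA:CR44977, which runs on the opposite strand. A summit of signal 264 lay 38 bp from the start of that lncRNA. For this summit and the pair in the exon, binding at brat and at the lncRNA cannot be told apart. Then 6 more followed, from 3037 bp past the start site to 711 bp before the last one, the strongest at 19161577 (signal 2746, rank 140). The first brat start site had a weaker summit 17 bp upstream (19133799, signal 376), the one with TATCGATA. It also lies in a coding exon of Polr1D, an RNA polymerase subunit gene on the opposite strand that overlaps the 5' end of brat. The next pair (signal 570 and 273) lay 170 and 30 bp from a Polr1D start site, so 3 of the 22 summits cannot be told apart from Polr1D summits.

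Signal strengths spread widely within each gene, as the plot of signals by gene shows. The 61 summits ran from 202 at Imp to 4164 at brat, with a median of 490. Of them, 11 (18.0%) were among the strongest 10% of the optimal list, and 43 were in its stronger 50%. By gene the medians were 701 at Syp, 696 at dpn, 525 at brat, 474 at pros, 445 at Imp, 352 at lin-28 and 321 at grh. The grh median was thus the lowest although its strongest summit was second only to those of brat.

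**Figure D2:**
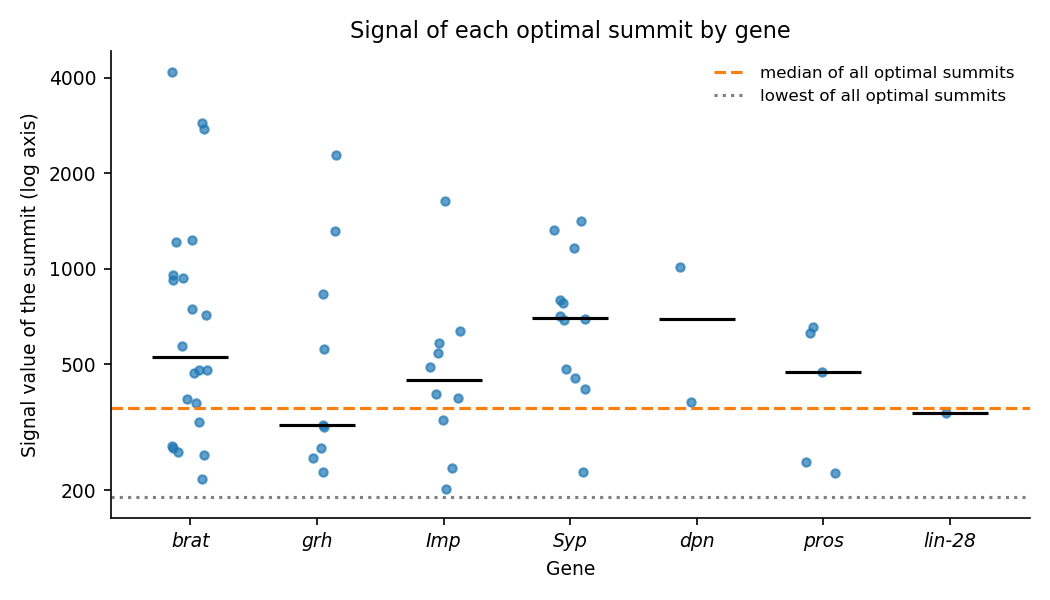
Signal value (log axis) of each of the 61 optimal summits by gene, with short black lines for the gene medians, a dashed line for the median of all optimal summits (364.6) and a dotted line for the lowest (191.2). Points are spread sideways for legibility; brat and grh hold the strongest summits.

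The order of the genes by their strongest summit was the same in each replicate. Matching each strongest summit to the strongest overlapping entry of a replicate, brat ranked 183, 33 and 42 in replicates 1, 2 and 3. Imp ranked 783, 473 and 363, Syp 1000, 779 and 523, and pros 3285, 2097 and 1952. In all 3 replicates the order was brat, grh, Imp, Syp, dpn, pros and lin-28. Among neighbours in this order, the replicate ranks of Imp and Syp overlapped, as did those of pros and lin-28, and the other neighbours did not overlap. Replicate 1 gave the lowest place to brat, grh, Imp, Syp, pros and lin-28, and its list also had the fewest entries at a q-value of 0.01 or lower (9925, against 16596 and 14879); the part this plays in the ranks was not tested.

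**Figure D3:**
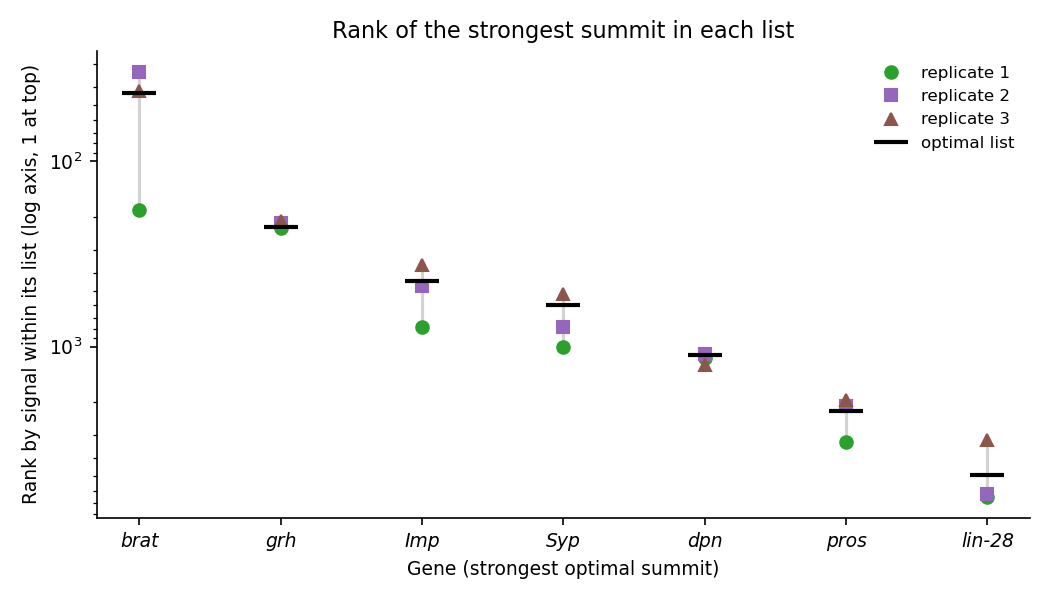
Rank by signal (log axis, rank 1 at the top) of the strongest optimal summit of each bound gene in the optimal list (black line) and of its matching entry in each replicate list. brat leads in every list, and replicate 1 lies lowest for 6 of the 7 genes.

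Nearly all of these summits had an overlapping top-list entry in every replicate. The top lists of all 3 replicates overlapped 56 of the 61 (91.8%), against 80.7% of all optimal entries. All 3 top lists missed 19 of the 9459 optimal entries and 0 of the 61. Single replicates overlapped 57, 60 and 61, a mean of 97.3% ± 3.41 (SD, n = 3). The optimal list was made from these same replicates, so part of this sharing is built in, and overlapping optimal entries can share 1 replicate entry. The 5 exceptions were 2 summits at grh and 1 each at dpn, pros and brat, and none was missing from more than 1 top list. With reciprocal overlap of 50% the share was 54.1%, and with summits at most 100 bp apart it was 65.6%. The shares of all optimal entries under these stricter rules are not given, so the comparison with the whole list holds for simple overlap only. The 61 summits also had a higher median signal than all optimal summits (490 against 364.6), and the part of this in the sharing was not tested.

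Pipsqueak summits at these genes lay mostly in introns. By the gene's own models, 53 of 61 summits were intronic, 5 were in 5' UTRs, 2 in coding exons and 1 outside the span. The intronic share of all optimal summits, and of the spans of these genes, was not computed. The count is therefore a description and shows no preference for introns. Within 500 bp of a start site of the same gene lay 15 summits (24.6%), and 21 lay beyond 3 kb of one. Counting start sites of any gene, 22 (36.1%) lay within 500 bp, against 43.4% of all optimal summits. Of the 27 start sites of the 9 genes, 12 had an optimal summit within 500 bp, against 26.3% of protein-coding start sites. The first start site was bound in 2 of the 9 genes (grh and brat), where the background was 24.4%, and 10 of the 18 further start sites were bound, where it was 31%. The top lists gave 2, 2 and 2 first start sites and 7, 10 and 10 further ones. Start sites of 1 gene can lie close enough to share chromatin, as at grh, so they are not independent.

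GAGAG occurred at 21 of the 61 summits (34.4%), searched on both strands up to 50 bp from the summit, and at 17% of all optimal summits. It was present at 7 summits of brat, 5 of grh, 4 each of Imp and Syp and 1 of pros, and at none of dpn or lin-28. In the replicate top lists the share at the 9 genes was 23.6%, 39.1% and 30.6%, against 15.4%, 17.7% and 18.0% of all summits of the same lists, so it was the higher in 3 of 3 replicates, by an amount that varied (31.1% ± 7.72, SD, n = 3). In windows of the same length 500 bp to either side of the 61 summits it was 9.84% and 18.0%, and at all optimal summits 14.2% and 13.3%. Centred only 100 bp to either side, the windows held it at 39.3% and 34.4%. Windows tiled end to end over the spans of the 7 bound genes held it at 14.95% (389 of 2602). No test was made of these shares, since summits within 1 region share their source.

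Both other sequences searched that have the base content of GAGAG were also more frequent at these summits than over the list. GGAAG was at 21.3% against 12.4% of all optimal summits, and AGGGA was at 18.0% against 11.4%. GAAAG, which has one A more and one G fewer, was at 19.7% against 25.2%. The windows at the 9 genes had a mean GC content of 43.9%, and all optimal windows 37.9%; what part base content has in the GAGAG share was not tested. The longer GAGAGAG, which contains GAGAG, was at 5 summits (8.20%, against 4.31%). TATCGATA was at 2 (3.28%, against 1.14%), those at brat and Imp printed above, and the core promoter sequence GGTCACACT was at none, against 0.486%. Most summits of these genes, 40 of 61, had no GAGAG in the window, and the median distance from summit to the nearest copy was 84 bp (181 bp for all optimal summits).

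**Figure D4:**
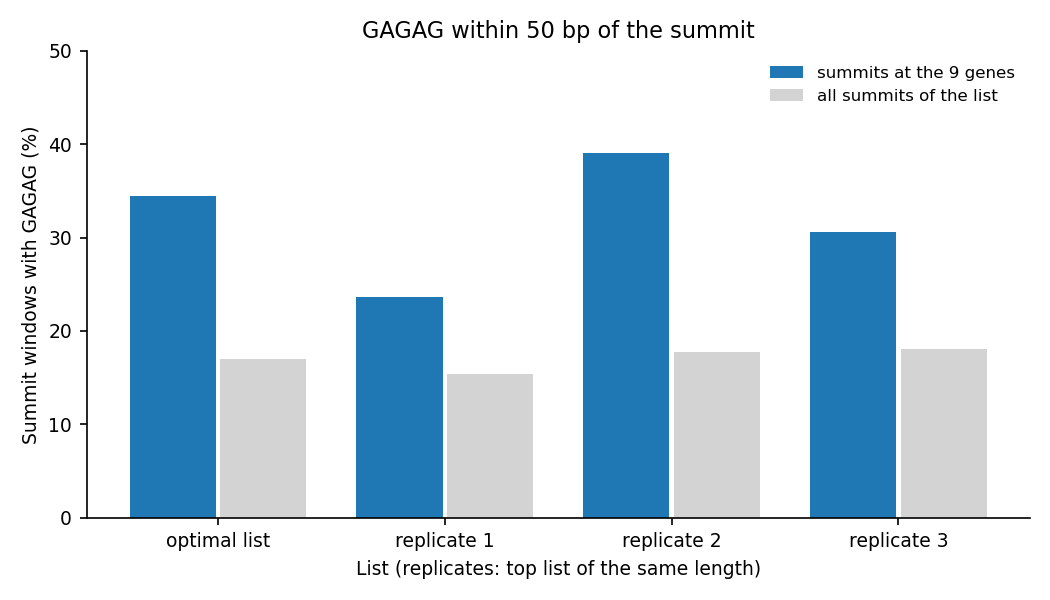
Share of summit windows (50 bp to each side, in %) that hold GAGAG on either strand, at the 9 genes (blue) and over all summits of the same list (grey), for the optimal list and the top list of each replicate. The blue bar is the higher in all 4 lists, from 23.6% in replicate 1 to 39.1% in replicate 2.

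A wider list of 52 neuroblast genes, chosen by function but with earlier results of these data known, gave a mixed picture. Of these, 30 (57.7%) were bound, with a median of 1 summit, beside 37.4% and a median of 0 over all protein-coding genes. The 3 top lists gave 30, 30 and 29. The median span of the 52 genes was 9374 bp, against 2164.5 bp for all protein-coding genes. What part span has in the share of bound genes was not tested. The 17 genes of asymmetric division and cortical polarity were bound most often (14 genes, median 3 summits, median span 11538 bp). Of 19 temporal factors 9 were bound (median span 23485 bp), and of 15 further neuroblast identity genes 6 (median span 2841 bp). The last group of 1 gene, the translational regulator mei-P26, had 1 summit.

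The bound members of this list were led by long genes with many summits. br, the ecdysone-induced Broad factor that marks late neuroblasts, had 17 summits and the strongest of the list (signal 2704). pnt, the ETS factor Pointed of type II neuroblasts, had 14 (signal 2268), and chinmo, the BTB factor of early-born neurons, had 7 (signal 1727). lola, another BTB gene, had 10 (signal 1671), and the long temporal genes hth and mamo had 12 and 11, none stronger than 490 and 843. Among polarity genes, the kinase gene aPKC led with 2196, followed by numb, the Notch inhibitor gene (1825), insc, the spindle orientation gene inscuteable (1085), and cno, the gene of the junction protein Canoe (1029).

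Of the 52 genes, 22 carried no optimal summit. Of the early embryonic temporal series, hb, Kr and cas had none, and their nearest optimal summits were 14220, 59247 and 19751 bp from their spans. The paired POU genes of that series were bound, nub with 6 summits (strongest signal 323) and pdm2 with 1 (signal 264). The achaete-scute genes ac, sc and l(1)sc had none, like their neighbour ase, and neither did the Snail-family genes wor, esg and sna. These genes are short, from 917 bp at ac to 2284 bp at wor. Of the 2343 genes comparable in span to ase (2430 bp), 1487 had no summit either. The longest genes without a summit were ham (30033 bp), klu (28018 bp), ey (23485 bp) and erm (20124 bp). Of these, klu had 1 top-list summit in replicates 2 and 3, ey and erm had 1 in replicate 1, and ham had none.

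**Figure D5:**
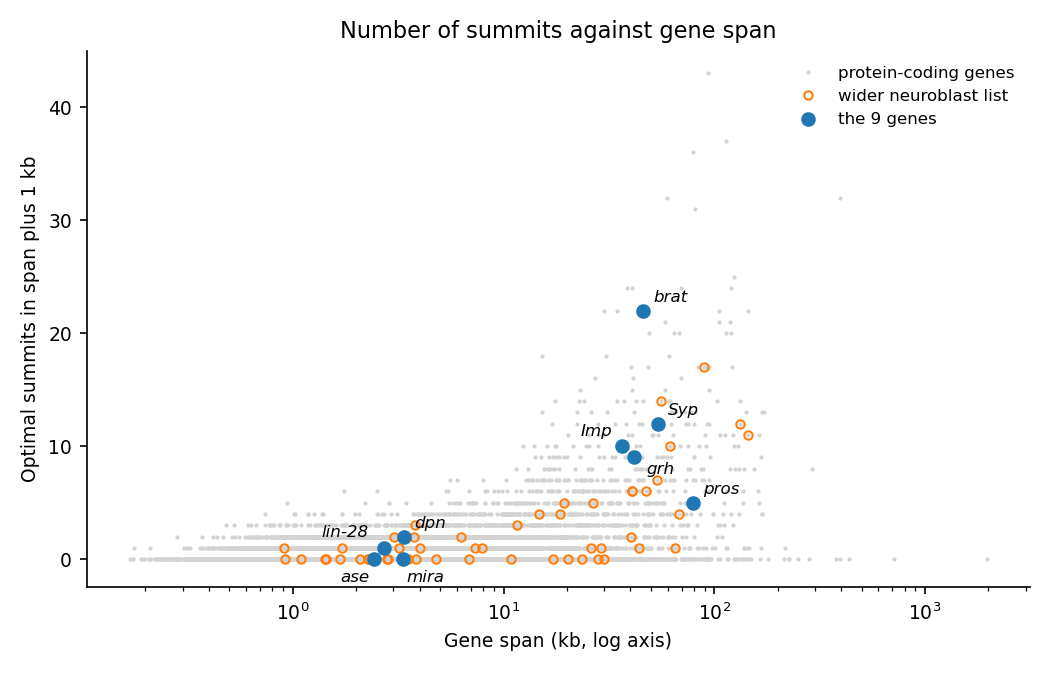
Number of optimal summits in the span plus 1 kb against gene span (kb, log axis) for all protein-coding genes (grey), the wider neuroblast list (orange) and the 9 genes (blue, named). brat, with 22 summits, stands near the top of genes of its length, whereas pros, the longest of the 9, has 5.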

How the data were processed

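The members and gene lists were chosen with earlier results of these data known. The deposited files are narrowPeak lists on dm6, and those on dm3 were not used. Per the README files deposited with the samples, the 3 replicate lists and the pooled list (30000 entries each) were called with a control and include background, as input to the irreproducible discovery rate step, and the optimal list (9459 entries) is its output. The sources used here do not name the aligner, the caller or the threshold. The control itself was not analysed here. Column 7 is the authors' signal value, column 9 the authors' −log10 of the q-value (one ceiling value, 4.30, throughout the optimal list) and column 10 the deposited summit offset, one of the other values used. DNA was sonicated to 200 to 800 bp, per the labels. Depth is unknown.

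Gene models were Ensembl release 115 (FlyBase 6.54) without transposable elements, and sequences came from the RefSeq copy of genome release 6. No optimal entry ran past the end of an arm. Entries matched when they overlapped by at least 1 bp, and of several the strongest was used. Python 3.11.15, numpy 2.4.6, pandas 2.3.3 and matplotlib 3.10.9 were used, after a check on simulated lists. With 1 group, and no read counts, no test was made. Errors are SDs over replicates. Named were all 9 members, of the wider list the 8 with the strongest summit, those with 8 or more summits and the 4 longest without one, and genes with a start site within 500 bp of a member summit. hb, Kr, cas, nub, pdm2, ac, sc, l(1)sc, wor, esg, sna and mei-P26 were named after their values were seen. Alternatives were the flank, the list, the overlap rule, the distance to a start site, the motif window and leaving out each replicate.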

Additional observations from a re-analysis of the deposited data

How the results depend on the processing

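The number of bound genes stayed at 7 of 9 with no flank, with 2 kb and in the replicate top lists, and was 6 with the stronger 50% of the optimal list, which drops lin-28. The 61 summits became 39 with 1 entry per set of overlapping entries, since fewer entries remain. The wider list fell from 30 to 17 bound genes with the stronger 50%. The share of summits at start sites (24.6%) was 16.4% within 250 bp, 36.1% within 1000 bp and 23.3% with the stronger 50%, and its mean over the replicate top lists, a choice made after seeing the data, was 24.8%. The share found in every top list (91.8%) fell to 54.1% if entries had to overlap reciprocally by 50%, to 65.6% if their summits had to lie within 100 bp, and to 59.0% with top lists cut to their stronger 50%. It ran from 91.8% to 98.4% on leaving out each replicate, highest without replicate 1. GAGAG at 34.4% of summits was 19.7% with 25 bp and 55.7% with 100 bp to each side of the summit, where all optimal summits had 8.85% and 31.6%. Mean replicate shares of GAGAG ran from 27.1% without replicate 2 to 34.9% without replicate 1. Where no value above shows the reason, the cause was not tested. No paired analysis was possible because there is 1 group. Depth is unknown, so summits not called at ase and mira are not shown to be absent.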

Other observations

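Summits within a gene were often about 200 bp apart. Of the 54 gaps between neighbouring summits of the same gene among the 9, 17 were 190 to 220 bp long (31.5%), and the shortest was 199 bp. Over the 9453 gaps along the arms in the optimal list, within genes and between them, 1481 (15.7%) fell in that range. The shortest gap of the whole list was also 199 bp, which may be a setting of the peak caller, and this was not tested. Of the 61 summits, 41 lay in the 19 regions with several summits, so counts of summits at brat, Syp and Imp are better read with their 15, 7 and 7 regions.

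Weaker entries of the pooled list also lay at some of the genes. Of its 30000 entries, 9459 form the optimal list, so most of its entries anywhere lie below that list. No share over all genes was set beside the counts that follow. The pooled list, which includes background, held 23 further entries at grh, 22 at Syp, 17 at brat, 13 at Imp, 6 at pros and 2 at dpn below the optimal list, and 0 at lin-28, ase and mira.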
